A study of Mus musculus with 3 samples.

Results

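Cadherins and protocadherins were followed in the neocortical cells that carry the Sst-Cre reporter at 3 stages. Members were taken by gene symbol from the 31053 genes listed in the files. The pattern of classical cadherin and protocadherin symbols matched 92 genes, and the 81 of them with at least 30 UMIs (unique molecular identifiers, each marking a single captured mRNA molecule) over all kept cells were the members. They comprise 15 cadherins, 11 non-clustered protocadherins, and 55 clustered protocadherins, the last divided into 13 of the alpha, 21 of the beta, and 21 of the gamma cluster. The other 11 matching genes (Cdh1, Cdh3, Cdh5, Cdh16, Cdh17, Cdh19, Cdh23, Cdh26, Pcdh12, Pcdhac1, and Pcdhb1) stayed under 30 UMIs. The rule used only the symbol and the total count.

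Cadherins are calcium-dependent adhesion proteins that bind a partner on the facing cell and, through catenins, the actin cytoskeleton. Type I cadherins such as N-cadherin hold neural tissue together broadly, whereas the type II cadherins and the delta protocadherins are each made by restricted sets of neurons, and their combinations are known to guide sorting, layering, and the choice of synaptic partners. Most clustered protocadherins are chosen by promoter in each neuron, so that single cells carry different sets. The clustered protocadherins serve self-recognition of neurites, and gamma-cluster isoforms are known to be needed for the survival of cortical interneurons after birth.

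All animals were Sst-Cre/+;RCE fl/+ mice, in which Cre made from the Sst locus switches on a GFP reporter for good, so that GFP marks cells that expressed Sst at any earlier time. There was no control genotype or treatment. The neocortex was pooled from 6 animals at embryonic day (E) 16.5 and from 3 animals each at postnatal day (P) 1 and P5, and GFP+ cells sorted by flow cytometry gave 1 droplet library per stage. Cells with more than 700 genes and under 10% mitochondrial UMIs were kept, 9433 of 12324 in all (3952, 2501, and 2980 in the order of the stages), with a median of 5577, 3293, and 3936 UMIs. Between any pair of libraries, 1 to 6 cell barcodes were shared.

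Cells were divided by single marker genes, because no cell annotation was used. Nos1 cells had at least 1 UMI of Nos1, the nitric oxide synthase that marks long-range projection (LRP) neurons, and numbered 67, 434, and 547 at E16.5, P1, and P5. Lhx6 cells had at least 1 UMI of Lhx6, a transcription factor of inhibitory neurons from the medial ganglionic eminence, and none of Nos1, and numbered 3269, 1606, and 1874. Summed UMIs were scaled to the total of the class as CPM, a level that for 3′ UMI counts does not depend on transcript length. All 6 GABAergic and 5 medial ganglionic eminence markers, Lhx6 among the latter, were detected in both classes of each library. The GABAergic markers summed to 852, 1087, and 1378 CPM in Nos1 cells and to 1292, 1256, and 1478 CPM in Lhx6 cells. Without Lhx6, the other 4 medial ganglionic eminence markers summed to 1254, 2108, and 1402 CPM in Nos1 cells. In Lhx6 cells they summed to 2581, 3379, and 2187 CPM. Lhx6 itself was found in 49, 360, and 392 of the Nos1 cells. Without Nos1 itself, which the gate fixes, the other 6 LRP markers summed to 12832, 25768, and 36138 CPM in Nos1 cells against 1709, 1360, and 971 CPM in Lhx6 cells. Most of these sums was Npy, at 12366, 24679, and 34619 CPM in Nos1 cells and 1635, 1208, and 816 CPM in Lhx6 cells. Chodl was at 42.1, 284, and 399 CPM against 7.21, 12.1, and 7.13 CPM. Sst itself was at 4205 to 5332 CPM in Nos1 cells and at 1425 to 2901 CPM in Lhx6 cells. The 11 glial and 7 vascular markers stayed at or near 0, with sums of at most 1.68 and 4.07 CPM. Nos1 cells at E16.5, however, also carried excitatory neuron transcripts, with 835 CPM over 8 markers (all 8 detected, against 10.5 CPM in Lhx6 cells), and still 192 CPM at P1 but 8.66 CPM at P5. The 5 Meis2-type markers likewise stood at 178, 87.8, and 19.9 CPM in Nos1 cells. No doublet caller was run, and the median UMIs of Nos1 cells at E16.5 were 7863 against 5808 in Lhx6 cells.

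**Figure D1:**
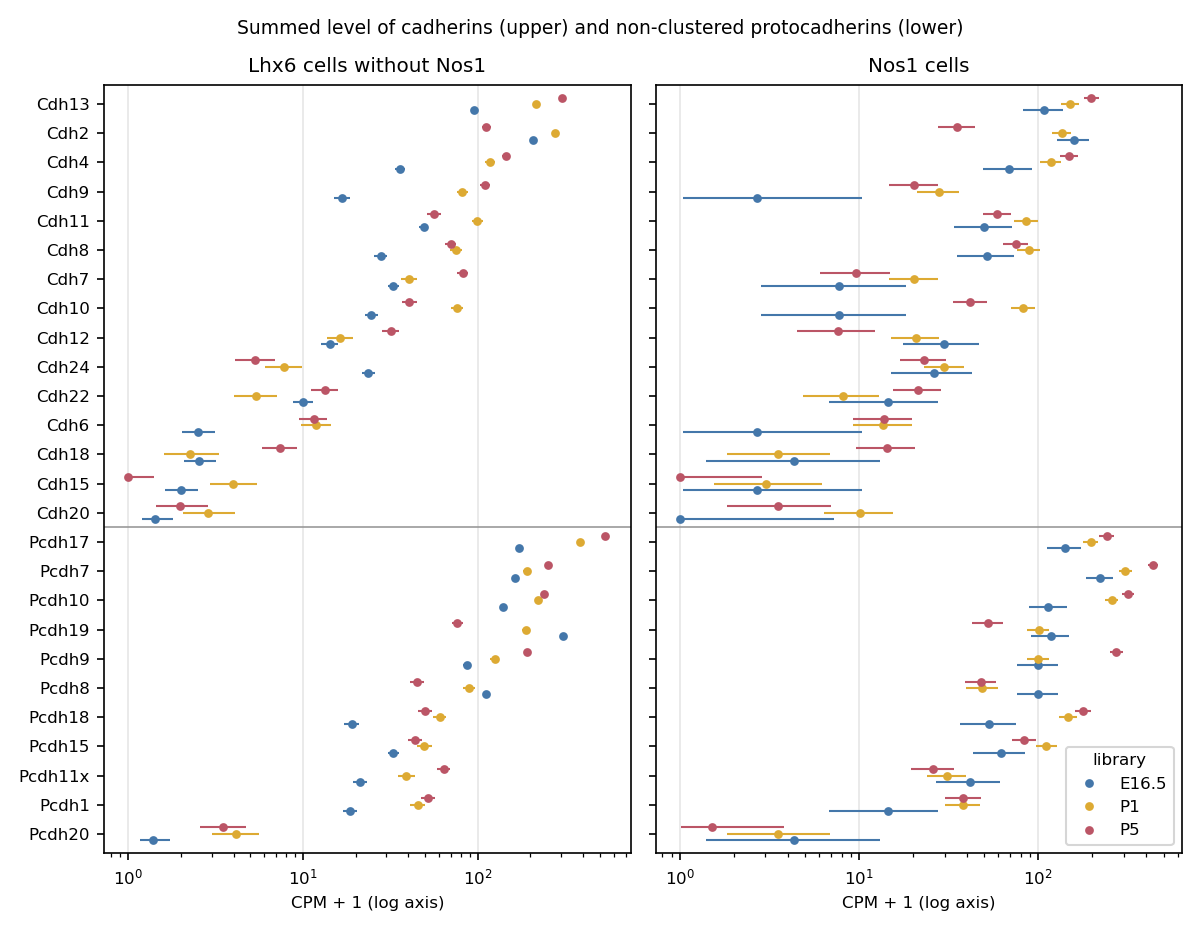
Summed level of the 15 cadherins (upper rows) and 11 non-clustered protocadherins (lower rows) in Lhx6 cells without Nos1 (left) and in Nos1 cells (right), as CPM + 1 on a log axis, with 1 point per library and bars for the exact 95% Poisson interval of the count. In Lhx6 cells Pcdh17 reached 530 CPM at P5 and Pcdh19 306 CPM at E16.5, whereas the Nos1 cells of E16.5 have wide bars because 67 cells were summed.

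In Lhx6 cells the non-clustered protocadherins made up the largest share of the counted UMIs of these genes. Their 11 members summed to 1061, 1384, and 1539 CPM at E16.5, P1, and P5, the 15 cadherins to 531, 1020, and 975 CPM, and the 55 clustered members to 315, 425, and 319 CPM. The clustered sum leaves out reads from the last exons that the alpha and the gamma genes share. It is therefore too low by an unknown amount and is not ranked against the other groups. Among the cadherins, the highest mean levels were those of Cdh13 (T-cadherin, which is anchored by a lipid and has no cytoplasmic tail), Cdh2 (N-cadherin), Cdh4 (R-cadherin), Cdh9, and Cdh11. Among the non-clustered protocadherins they were those of Pcdh17, Pcdh7, Pcdh10, Pcdh19, and Pcdh9. Among the clustered members, the highest by counted UMIs were Pcdhb7, Pcdhgc4, Pcdha11, Pcdhb22, and Pcdhga12, each between 5.83 and 26.8 CPM in every library. For the same reason their order across the clusters is not read. The symbol Pcdha11 stands for 2 genes in the files, and the value here is that of ENSMUSG00000102206 (927 UMIs), the other being ENSMUSG00000007440 (96 UMIs).

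The first comparison asked which members differ between LRP-like cells and the other cells of the Lhx6 lineage on average over the 3 stages. A member could pass without a difference in each library. Nos1 cells were higher than Lhx6 cells in the delta-2 protocadherin Pcdh18, the type II cadherin Cdh24, Pcdh15, and the delta-1 protocadherin Pcdh7. They were lower in Pcdh17, Pcdh19, N-cadherin, Cdh7, and Cdh9. These 9 of 81 members passed an adjusted p of 0.05 in edgeR's quasi-likelihood test, in which each library gave 1 sum per class and the library was a block. Over all 13803 genes tested, 5.38% passed, 2.83% in the higher and 2.55% in the lower direction, beside 4 and 5 of the 81 members. The median log2 fold change was -0.11 over the members and -0.07 over all genes tested. With 3 pooled libraries the p-values measure only the spread of the class difference among these libraries, which also differ in stage.

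Pcdh18, a delta-2 protocadherin that binds the reelin adaptor Dab1, was at 52.2, 146, and 177 CPM in Nos1 cells at E16.5, P1, and P5. In Lhx6 cells it was at 17.9, 59.4, and 48.8 CPM. Nos1 cells were higher in each library, and the ratios of 2.91, 2.45, and 3.63 had intervals above 1 throughout. The log2 fold change was 1.56 ± 0.15 (SE, 3 libraries, edgeR adjusted p = 0.000235). Pcdh18 is on the gene tables of the study for these samples, so this is not independent evidence of its direction. The count at E16.5 was 31 UMIs.

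Pcdh15, best known as a component of the tip links of hair cells, was at 60.6, 110, and 82.5 CPM in Nos1 cells and at 31.9, 48.3, and 42.8 CPM in Lhx6 cells. The ratio was near 2 in each library, from 1.90 at E16.5 to 2.28 at P1, and the log2 fold change was 1.02 ± 0.13 (edgeR adjusted p = 0.00115). Pcdh7, a delta-1 protocadherin whose cytoplasmic tail binds protein phosphatase-1, was at 220, 305, and 435 CPM in Nos1 cells. It was at 162, 190, and 253 CPM in Lhx6 cells, again lower in each library. Its log2 fold change was 0.62 ± 0.12 (edgeR adjusted p = 0.0127). Pcdh7 is also listed by the study.

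Cdh24, a type II cadherin, had unequal ratios over the stages. Nos1 cells held it at a similar level throughout, 25.2, 28.9, and 21.9 CPM, whereas Lhx6 cells went from 22.7 CPM at E16.5 to 6.74 at P1 and 4.32 at P5. The ratio was therefore 1.11 (95% interval 0.619 to 1.86) at E16.5, where the classes did not differ beyond counting error, and 4.29 and 5.07 after birth. Its log2 fold change of 1.55 ± 0.38 passed narrowly (edgeR adjusted p = 0.0412). It was 2.22 without E16.5, and without P1 it was 1.30 and no longer passed (adjusted p = 0.0858).

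Cdh9 and Cdh7, type II cadherins made by restricted neuron types, had the largest differences. Cdh9, which in the hippocampus is needed at mossy fibre synapses, was at 1.68, 26.9, and 19.4 CPM in Nos1 cells. In Lhx6 cells it was at 15.7, 80.7, and 109 CPM. Every Nos1 value lay under its Lhx6 partner, though the first rests on 1 UMI (ratio 0.107, 95% interval 0.00271 to 0.602). The log2 fold change was -2.05 ± 0.21 (edgeR adjusted p = 0.000343). Cdh7 was at 6.73, 19.3, and 8.66 CPM in Nos1 cells and at 31.8, 39.3, and 80.8 CPM in Lhx6 cells. Its log2 fold change was -2.05 ± 0.33 (edgeR adjusted p = 0.00452), and it depended on the library: -2.95 without P1 and -1.30 without P5, both with an adjusted p under 0.05.

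N-cadherin (Cdh2), the main classical cadherin of neurons, was at 157, 134, and 34.1 CPM in Nos1 cells and at 207, 277, and 111 CPM in Lhx6 cells. It was lower in Nos1 cells in each library, with ratios of 0.756, 0.484, and 0.307. The log2 fold change was -1.07 ± 0.17 (edgeR adjusted p = 0.00445). Pcdh19, an X-linked delta-2 protocadherin that associates with N-cadherin on the same membrane and is mutated in a form of epilepsy, was at 116, 99.5, and 51.4 CPM in Nos1 cells. In Lhx6 cells it was at 306, 187, and 75.3 CPM, so that both classes were lowest at P5. Its log2 fold change was -0.97 ± 0.17 (edgeR adjusted p = 0.00697).

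Pcdh17, a delta-2 protocadherin that recruits actin regulators to axonal contacts, was at 140, 195, and 239 CPM in Nos1 cells and at 171, 381, and 530 CPM in Lhx6 cells. Both classes had more in each later library. The ratio was 0.819 (95% interval 0.651 to 1.02) in the E16.5 library and 0.511 and 0.452 in the postnatal ones. The log2 fold change was -0.87 ± 0.14 (edgeR adjusted p = 0.00338).

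**Figure D2:**
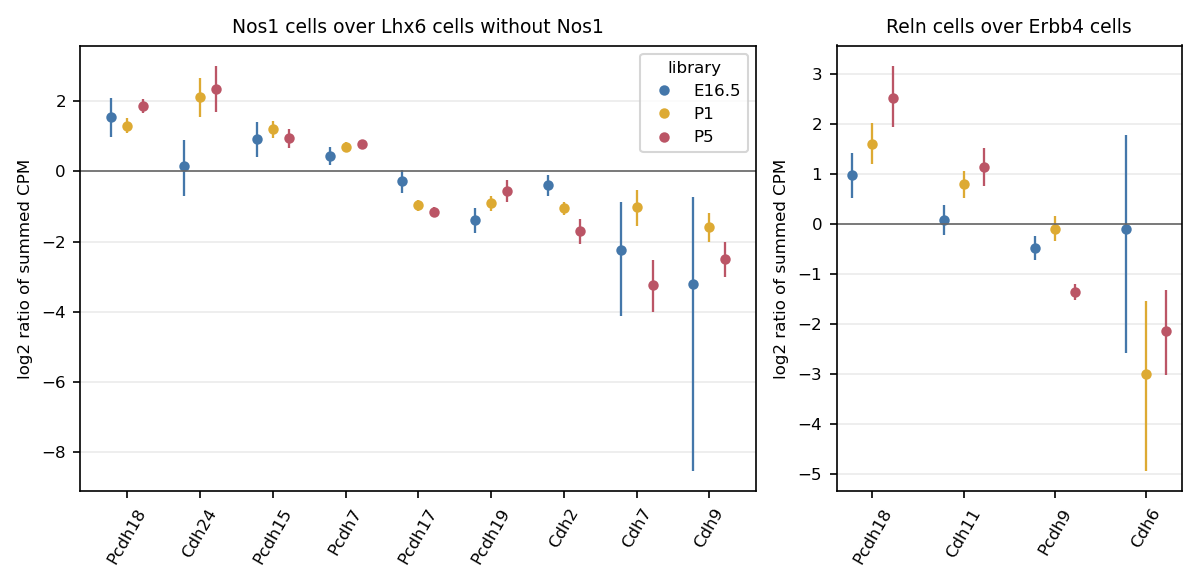
Log2 ratio of summed CPM for the members that passed in Nos1 cells over Lhx6 cells without Nos1 (left, 9 members) and in Reln cells over Erbb4 cells (right, 4 members), with 1 point per library and bars for the exact 95% interval of the ratio of counts. Pcdh18, Pcdh15, and Pcdh7 lie above 0 and Cdh2, Pcdh19, Cdh7, and Cdh9 below 0 in each library, while Cdh24 at E16.5, with a ratio of 1.11, lies near 0.

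With cells carrying a UMI of an excitatory, Meis2-type, glial, or vascular marker left out (48 of the 67 Nos1 cells of E16.5 remained), the same 9 members passed and Cdh13 joined them. Their log2 fold changes were then 1.71 for Pcdh18, 1.72 for Cdh24, 1.17 for Pcdh15, 0.81 for Pcdh7, -0.97 for Pcdh17, -0.85 for Pcdh19, -1.49 for Cdh2, -2.07 for Cdh7, and -2.24 for Cdh9. Where Nos1 cells had to hold at least 3 Nos1 UMIs, which left 16 of the 67 at E16.5, the values of Cdh9 and Cdh7 became -3.45 and -3.63 and that of Pcdh19 -1.60, whereas Pcdh7 no longer passed (0.59, adjusted p = 0.0856).

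The other genes that the study lists did not pass in this comparison. Cdh13 was at 106, 149, and 197 CPM in Nos1 cells and at 94.0, 215, and 302 CPM in Lhx6 cells, a log2 fold change of -0.40 (edgeR adjusted p = 0.140). It was -0.56 (adjusted p = 0.000133) without E16.5, the library in which Nos1 cells were not lower. Cdh8, at 50.5, 87.3, and 73.9 CPM in Nos1 cells and 26.8, 74.0, and 68.9 CPM in Lhx6 cells, gave 0.32 (adjusted p = 0.317). Cdh12 gave -0.28 (adjusted p = 0.837), with the classes in opposite order at E16.5 and P5.

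Promoters of members with a difference between these classes are shown for 2 that were higher in Nos1 cells (Pcdh18 and Pcdh15) and 2 that were lower (Pcdh17 and Pcdh19), since the same short element lies in all of them. Each line holds 150 bases upstream of an annotated start, read 5′ to 3′ on the strand of the gene, from RefSeq on build GRCm38. For Pcdh15 this start lies inside the gene, which is annotated at chr10:73099342-74649737. Capitals mark a CCAAT box, here as its reverse complement ATTGG. The stretches lie at chr10:73821717-73821866 on the + strand for Pcdh15, chr14:84443413-84443562 on the + strand for Pcdh17, chr3:49757326-49757475 on the - strand for Pcdh18 (9 bases next to the start, annotated as exon, were left out), and chrX:133688994-133689143 on the - strand for Pcdh19.
Pcdh18: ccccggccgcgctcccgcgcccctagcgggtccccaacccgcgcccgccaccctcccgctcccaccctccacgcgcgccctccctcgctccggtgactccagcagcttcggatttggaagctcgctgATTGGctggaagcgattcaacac
Pcdh15: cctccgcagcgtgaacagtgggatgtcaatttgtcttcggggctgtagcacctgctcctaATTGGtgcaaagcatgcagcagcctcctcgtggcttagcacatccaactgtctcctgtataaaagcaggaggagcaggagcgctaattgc
Pcdh17: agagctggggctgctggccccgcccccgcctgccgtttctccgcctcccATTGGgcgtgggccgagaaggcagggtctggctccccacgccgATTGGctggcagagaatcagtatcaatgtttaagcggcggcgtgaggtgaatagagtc
Pcdh19: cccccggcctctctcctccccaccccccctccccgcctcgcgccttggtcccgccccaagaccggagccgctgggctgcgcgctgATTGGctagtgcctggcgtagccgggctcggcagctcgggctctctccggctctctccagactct

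The following motifs were searched on both strands of the 250 bases before the start: TAATTA (homeodomain), ATGCAAAT (octamer of POU factors), ACAAAG (SOX), and CCAAT. Of the 81 members, 20 had a promoter in the table used, and the clustered members were not among them. Some have more than 1 start, so that they hold 23 promoters. The CCAAT box was in 14 of the 23 (60.9%) beside 33.8% of all 32851 promoters in the table, SOX in 4 (17.4%) beside 16.5%, the homeodomain motif in 1 (4.35%) beside 4.84%, and the octamer in 1 (4.35%, Pcdh8) beside 1.6%. In the promoters shown, the CCAAT box lies 90 bases before the start in Pcdh15, 101 and 58 in Pcdh17, 32 in Pcdh18, and 65 in Pcdh19. It therefore stood in members of both directions, but the promoters shown were picked for holding it. It was also in the Cdh9 promoter and in a Cdh7 promoter, both genes lower in Nos1 cells. Pcdh7 and Cdh24, higher in Nos1 cells, had no match to any of the motifs. All 250 bases of the Pcdh7 window are annotated as exon, as are 159 of the Cdh9 window and 220 of that Cdh7 window. These matches describe letters in the window only.

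No clustered protocadherin passed in the comparison of Nos1 and Lhx6 cells. Of the 55, 35 had a negative and 20 a positive log2 fold change (median -0.11), and the lowest edgeR adjusted p was 0.156. At an unadjusted p under 0.05 there were 3 of the 55 by edgeR (5.45%, beside 16.8% of all genes) and 0 by DESeq2 (beside 9.76%). The 55 together had 154 UMIs in the Nos1 cells of E16.5. With such low counts these shares do not show that the classes are equal. In the beta cluster 17 of 21 members had a negative value (median -0.30), in the gamma cluster 13 of 21 (median -0.11), and in the alpha cluster 5 of 13 (median 0.22). The alpha and gamma members must be read with caution, because the last 500 exonic bases of all 13 alpha and all 21 gamma genes are shared with other annotated genes, whereas 20 of the 21 beta genes share none. Per the study's methods a read was counted only when it matched a single gene, so reads from shared exons were lost, and alpha and gamma levels cannot be set against beta levels.

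The second comparison divided the Lhx6 cells by Reln (reelin, a leading Martinotti gene of the study) and Erbb4 (a neuregulin receptor). Reln cells, with a UMI of Reln and none of Erbb4, numbered 389, 314, and 812, and Erbb4 cells, with the reverse, 1529, 647, and 491. Without Reln, the other 5 Martinotti markers summed to 893, 2269, and 3525 CPM in Reln cells and to 358, 432, and 547 CPM in Erbb4 cells. The non-Martinotti markers without Erbb4 summed to 1263, 2558, and 1464 CPM in Reln cells and to 2534, 5572, and 3340 CPM in Erbb4 cells. The Reln cells thus held more of these than of the Martinotti markers at E16.5 and P1, and the classes are called by their gate genes. Excitatory markers stayed at or under 15.8 CPM in both. Reln cells were higher in Pcdh18 and Cdh11 and lower in Cdh6 and Pcdh9. These 4 of 81 members passed beside 5.62% of the 13796 genes tested, 2.74% in the higher and 2.88% in the lower direction, so the share of members, 4.94%, was close to that of all genes.

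Pcdh18 was at 25.8, 81.7, and 69.0 CPM in Reln cells and at 13.0, 26.8, and 11.9 CPM in Erbb4 cells. The ratio was 1.98, 3.05, and 5.78 at E16.5, P1, and P5, above 1 in each library. The log2 fold change was 1.65 ± 0.22 (edgeR adjusted p = 0.000583). Pcdh18 thus passed in both comparisons, with Erbb4 cells lowest. Cdh11, a type II cadherin also known from bone and mesenchyme, was at 47.3, 129, and 70.7 CPM in Reln cells and at 44.7, 74.3, and 32.1 CPM in Erbb4 cells. The classes were level at E16.5 (ratio 1.06) and apart after birth (1.73 and 2.20), with a log2 fold change of 0.65 ± 0.17 (edgeR adjusted p = 0.0415).

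Cdh6, a type II cadherin first described in kidney, was nearly absent at E16.5, with 1.17 CPM in Reln and 1.26 CPM in Erbb4 cells. At P1 and P5 it was at 2.03 and 4.17 CPM in Reln cells and at 16.2 and 18.4 CPM in Erbb4 cells. The postnatal ratios were 0.125 and 0.227, and the log2 fold change was -2.11 ± 0.40 (edgeR adjusted p = 0.00621). Pcdh9, a delta-1 protocadherin, was at 68.4, 113, and 122 CPM in Reln cells and at 95.0, 120, and 313 CPM in Erbb4 cells. The difference was greatest at P5 (ratio 0.391) and within counting error at P1 (0.939, 95% interval 0.787 to 1.12), with a log2 fold change of -0.67 ± 0.18 (edgeR adjusted p = 0.0424). None of the 4 passed without the P1 library (adjusted p = 0.0764 for Pcdh18, 0.288 for Cdh6, 0.527 for Cdh11, and 0.0764 for Pcdh9), and Pcdh9 did not pass without P5 either (-0.27, adjusted p = 0.333). Of the 55 clustered members 0 passed by edgeR (lowest adjusted p = 0.190), and 4 of the 55 had an unadjusted p under 0.05 (7.27%, beside 17.4% of all genes), or 0 by DESeq2 (beside 7.73%). Their counts were low here too (749 UMIs over all 55 in the Reln cells of E16.5), so equal levels are not shown. In Nos1 over Lhx6 cells, 3 members (Cdh12, Pcdh11x, and Pcdh9) had ratio intervals on opposite sides of 1 in different libraries, 3.70% beside 2.79% of all genes. In Reln over Erbb4 cells there were 2 (Cdh7 and Cdh10), 2.47% beside 2.06%. Both shares were close to those of all genes.

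The third question was how the members differ between stages within Lhx6 cells. With 1 library per stage no test was possible, so stage differences are ratios of 2 libraries, with intervals that cover counting error only. Members at least 2-fold apart on the log2(CPM + 1) scale are counted. From E16.5 to P1, 20 members were at least 2-fold higher and 1 was lower, beside 10.6% and 3.35% of 13804 genes. From P1 to P5, 4 were higher and 7 lower, beside 8.71% and 10.0%. These counts depended on the processing. The 11 members of P1 to P5 became 4 with a pseudocount of 5 CPM, 19 with cells thinned to 2000 UMIs, 19 with per-cell means, and 25 with only cells of more than 1000 genes and under 5% mitochondrial UMIs, and the 21 of E16.5 to P1 became 12 with a pseudocount of 5 CPM. From E16.5 to P5, 18 were higher (22.2% of members) and 6 lower, beside 18.4% and 12.5%. The ratio interval lay above 1 at P1 over E16.5 for 39 members (48.1%), beside 42.2% of all genes. It lay below 1 at P5 over E16.5 for 15 (18.5%), beside 35.6%. The medians of the members, 0.34, -0.23, and 0.26 on the log2 scale for the 3 steps, compare with 0.17, -0.09, and 0.06 over all genes.

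Type II cadherins accounted for 6 of the 20 members that were higher at P1. These were 54.5% of the 11 type II members, beside 10.6% of all genes. Cdh6 was at 1.51, 10.9, and 10.5 CPM in Lhx6 cells at E16.5, P1, and P5, a ratio of 7.21 (95% interval 4.76 to 11.2) at P1. Cdh9, at 15.7, 80.7, and 109 CPM, had a ratio of 5.14 at P1 and 6.95 at P5 over E16.5. Cdh8, Cdh10, Cdh11, and Cdh20 were also at least 2-fold higher. Cdh24 was the type II member at least 2-fold lower, with a ratio of 0.298 at P1 and 0.191 (0.135 to 0.264) at P5. Later in the first week the order of the type II members changed again. Cdh18 went from 1.25 to 6.37 CPM between P1 and P5 (ratio 5.10, interval 2.59 to 11.2), Cdh22 from 4.37 to 12.3 CPM (2.82), and Cdh7 from 39.3 to 80.8 CPM (2.05).

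Type I cadherins followed different courses. Cdh4 was at 34.9, 117, and 143 CPM, a ratio of 3.35 at P1. N-cadherin was highest at P1 and lowest at P5, at 207, 277, and 111 CPM, a ratio of 0.401 (0.372 to 0.432) for P5 over P1. Cdh15, the M-cadherin of skeletal muscle, was near the detection limit, with 21, 24, and 0 UMIs, and the upper bound of its P5 over P1 ratio was 0.144. Cdh13 was higher in each later library, at 94.0, 215, and 302 CPM.

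Of the delta protocadherins, all 4 delta-1 members (Pcdh1, Pcdh7, Pcdh9, and Pcdh11x) had intervals above 1 at P1 over E16.5 and at P5 over E16.5. At P1 42.2% of all genes did. The median log2 ratio of the 4 at P5 over E16.5 was 1.32. Of the 5 delta-2 members, 3 had intervals above 1 and 2 (40.0%) below at P5 over E16.5, with a median of 0.78. The interval lay below 1 for 35.6% of all genes. The share of all genes above 1 was not counted for this step, so the counts above 1 are not read as a trait of the delta members. Pcdh9 was at 85.3, 124, and 191 CPM and Pcdh11x at 20.2, 38.0, and 62.8 CPM. Pcdh17 reached 3.11-fold its E16.5 level at P5, and Pcdh10, a delta-2 member that binds the WAVE complex of actin regulators, was at 139, 220, and 239 CPM. Pcdh19 was at 306, 187, and 75.3 CPM, a ratio of 0.246 (0.227 to 0.266) at P5 over E16.5, and Pcdh8 (arcadlin, induced by neuronal activity) at 110, 88.0, and 44.0 CPM. Of these 11 genes Pcdh19 was the highest at E16.5 and Pcdh17 at P1 and P5. Pcdh20 was rare, with 8, 25, and 23 UMIs, and its ratio of 8.28 at P1 over E16.5 has an interval of 3.62 to 21.2.

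**Figure D3:**
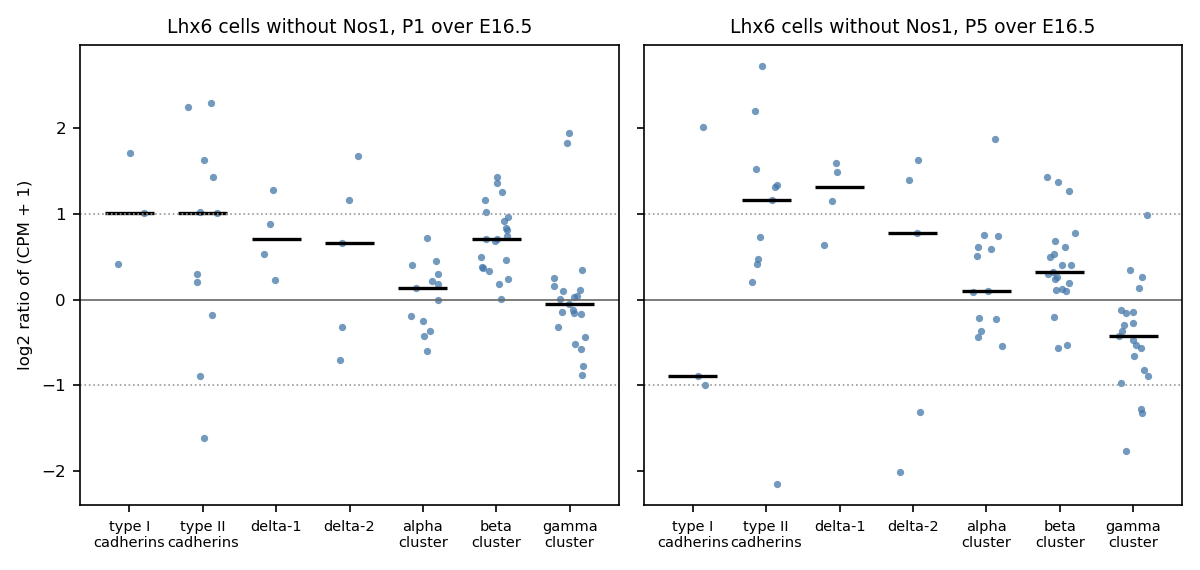
Log2 ratio of CPM + 1 in Lhx6 cells without Nos1 for P1 over E16.5 (left) and P5 over E16.5 (right), with 1 point per member by family, a black line at the family median, and dotted lines at a 2-fold difference. The beta cluster has a median of 0.71 at P1 with no member below 0, and the gamma cluster a median of -0.05 at P1 and -0.43 at P5.

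The beta cluster summed to 121 CPM (95% interval 116 to 126) in the Lhx6 cells of E16.5, to 213 CPM (203 to 223) in those of P1, and to 166 CPM (157 to 174) in those of P5. In Nos1 cells its order was the same, at 92.6, 169 (151 to 188), and 144 (127 to 161) CPM, though the intervals of P1 and P5 overlapped. The P1 library also had the highest mitochondrial share and the lowest depth in Lhx6 cells, with medians of 4.04%, 6.27%, and 4.35% and of 5808, 3811, and 4752.5 UMIs, and their part in the P1 values was not tested. In Lhx6 cells at P1 over E16.5, 16 of the 21 beta members (76.2%, beside 42.2% of all genes) had an interval above 1 and 0 below. At least 2-fold higher were 5 (23.8%, beside 10.6%), namely Pcdhb11, Pcdhb12, Pcdhb14, Pcdhb16, and Pcdhb20. The largest such ratio was 4.52 (2.40 to 8.77) for Pcdhb12, which had only 17 UMIs at E16.5. From P1 to P5, 7 beta members (33.3%) had an interval below 1, among them Pcdhb10, from 3.75 to 0.864 CPM, and Pcdhb7, from 24.8 to 13.8 CPM. The share of all genes was not counted for this step, so the 7 are not read as a trait of the cluster. Pcdhb22, with 9.33, 19.1, and 23.9 CPM, was highest at P5.

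The gamma cluster summed to 136, 152, and 87.1 CPM in Lhx6 cells and to 119 (93.3 to 151), 143, and 95.3 (82.1 to 110) CPM in Nos1 cells. The lowest value was at P5 in both classes, but in Nos1 cells its interval overlapped that of E16.5. At P5 over E16.5, 8 of 21 gamma members (38.1%) had an interval below 1, close to the 35.6% of all genes. The interval lay above 1 for 1 member, and the share of all genes above 1 was not counted. Pcdhga12 was at 22.3, 20.5, and 5.83 CPM, a ratio of 0.261 (0.193 to 0.347), and Pcdhga9 had a ratio of 0.300. Pcdhga11 peaked at P1, at 6.41, 25.3, and 8.42 CPM. Pcdhgc4, the gamma isoform known for its role in neuronal survival, was at 26.8, 18.5, and 13.2 CPM in Lhx6 cells and at 21.9, 21.8, and 16.8 CPM in Nos1 cells. The alpha cluster summed to 58.0, 60.1, and 66.9 CPM in Lhx6 cells and to 47.1 (31.3 to 68.1), 67.0, and 72.8 (61.4 to 85.8) CPM in Nos1 cells. Within it Pcdhac2, an isoform known from the spacing of serotonergic axons, went from 3.12 CPM at P1 to 10.0 CPM at P5 in Lhx6 cells (ratio 3.22, 2.05 to 5.22) and from 4.06 to 12.2 CPM in Nos1 cells. These alpha and gamma values leave out the reads from shared 3′ exons.

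**Figure D4:**
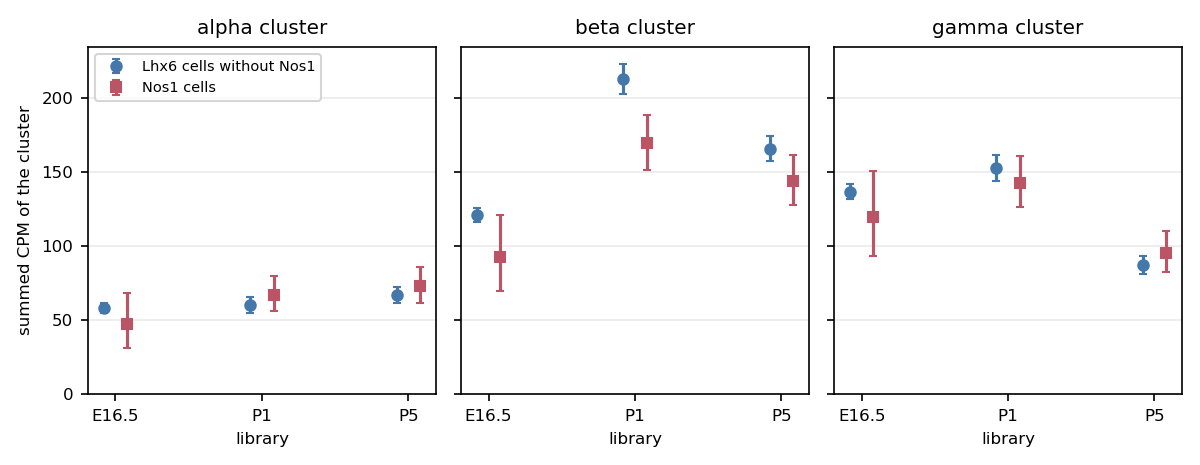
Summed CPM of the alpha, beta, and gamma protocadherin clusters by library in Lhx6 cells without Nos1 (circles) and Nos1 cells (squares), with bars for the exact 95% Poisson interval. The beta cluster is highest at P1 in both classes (213 and 169 CPM) and the gamma cluster lowest at P5 (87.1 and 95.3 CPM). In Nos1 cells the bars of P1 and P5 overlap for the beta cluster, and those of E16.5 and P5 for the gamma cluster.

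Few clustered protocadherin UMIs were captured per cell, which does not give the number of transcripts that a cell holds. A UMI of any of the 55 was found in 80.1%, 78.4%, and 72.0% of Lhx6 cells in the order of the stages, and in 82.1%, 73.5%, and 59.0% of Nos1 cells. The unthinned shares also hold the depth per cell. With each cell thinned to 2000 UMIs they were 46.5% (95% interval 44.8 to 48.3), 56.3% (53.5 to 59.0), and 45.2% (42.8 to 47.6) in Lhx6 cells, and 40.0%, 52.8%, and 45.4% in Nos1 cells. The thinned shares were highest at P1. With more than 1000 genes and under 5% mitochondrial UMIs required, and no thinning, P1 was the lowest in Lhx6 cells (80.3%, 70.0%, and 76.4%), so no order of the stages is read from them. Deep enough for thinning were 3100 of 3269, 1315 of 1606, and 1673 of 1874 Lhx6 cells and 65 of 67, 356 of 434, and 414 of 547 Nos1 cells. Unthinned Lhx6 cells carried UMIs of 1.83, 1.85, and 1.46 different clustered genes on average and of 11 at most. No cell type that lacks these genes was measured, so the part of free RNA in the shares was not tested.

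Among Nos1 cells of P1 and P5, those with Dach1 and those with Lypd1, 2 genes by which the study separates LRP neurons, differed in cadherins. The Dach1 cells (98 at P1 and 27 at P5) and the Lypd1 cells (55 and 221) were each 1 sum per library, without a test. In both libraries the ratio interval was above 1 for Cdh20, Pcdh17, and Cdh11, 3 members beside 0.804% of genes. It was below 1 for Pcdh10, Pcdh7, Pcdh18, Pcdh19, and Pcdh9, 5 members beside 0.869% of 13802 genes.

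Pcdh17 was at 171 and 652 CPM in Dach1 cells at P1 and P5 and at 49.5 and 124 CPM in Lypd1 cells (ratios 3.45 and 5.27). Cdh11 was at 136 and 112 CPM against 49.5 and 40.0 CPM. Cdh20, a type II cadherin, had 8 and 2 UMIs in Dach1 cells and 0 in Lypd1 cells of either library. Pcdh7 ran the other way, at 217 and 102 CPM in Dach1 cells and 409 and 553 CPM in Lypd1 cells (ratios 0.532 and 0.184). Pcdh18 was at 119 and 81.4 CPM in Dach1 cells against 235 and 237 CPM in Lypd1 cells. Pcdh9 was at 44.4 and 71.3 against 121 and 327 CPM, and Pcdh10 at 199 and 163 against 276 and 364 CPM. Pcdh19 had 20 and 0 UMIs in Dach1 cells and 34 and 42 in Lypd1 cells. Of the 5 members higher in Lypd1 cells, Pcdh7 and Pcdh18 were also higher in Nos1 than in Lhx6 cells and Pcdh19 was lower. At P5 the Dach1 cells did not share 2 of the class differences. Pcdh7 was lower in them than in Lhx6 cells (102 against 253 CPM, on 10 UMIs), and Pcdh17 was higher (652 against 530 CPM). At P1 both ran as in the whole Nos1 class. Pcdh18 lay above and Pcdh19 below the Lhx6 level in both groups and both libraries. Both groups had LRP markers at 32227 CPM or more, of which Npy alone was 28304 CPM or more. Excitatory markers were at 155 CPM in Lypd1 cells and 7.01 CPM in Dach1 cells at P1 and at 0 UMIs in both at P5. The 8 members were picked for the same direction in both libraries, so their direction at P5 adds nothing. The part of the excitatory transcripts in the P1 values was not tested.

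**Figure D5:**
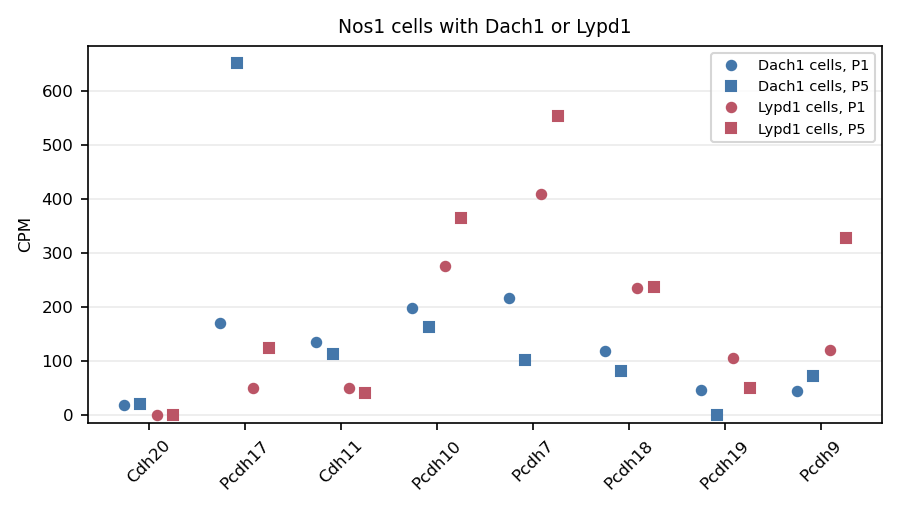
Summed CPM of 8 members in Nos1 cells with Dach1 (blue) and with Lypd1 (red) at P1 (circles) and P5 (squares), for the members whose ratio interval lay on the same side of 1 in both libraries. Cdh20, Pcdh17, and Cdh11 are higher in Dach1 cells and Pcdh10, Pcdh7, Pcdh18, Pcdh19, and Pcdh9 in Lypd1 cells at both stages.

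Genes that act with cadherins were counted from 4 lists. Over all genes, 5.38% passed in Nos1 over Lhx6 cells and 5.62% in Reln over Erbb4 cells. The counts of these short lists were not tested against those shares. Of 11 catenins and adhesion partners tested, 0 were higher and 1 was lower in Nos1 cells, the neural delta-catenin Ctnnd2 (156.5, 256, and 263 CPM against 162, 379, and 466 CPM, log2 fold change -0.54, edgeR adjusted p = 0.0308). In Reln over Erbb4 cells 2 were higher, Ctnnd2 (0.48, adjusted p = 0.00350) and Vcl, the vinculin of adhesion junctions (1.16, adjusted p = 0.00345). Of 7 proteases and kinases of cadherin processing, 0 passed in Nos1 cells and 1 in Reln cells, the proprotein convertase Furin (-1.16, adjusted p = 0.000143). None of the 13 regulators of clustered protocadherin choice, such as the insulator protein Ctcf, passed in either edgeR test.

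Of 11 larger relatives of the cadherins tested, 2 were higher and 0 lower in Nos1 cells, beside 2.83% and 2.55% of all genes. The median log2 fold change of the 11 was -0.17. Fat3, a giant atypical cadherin that shapes dendrites, was at 101, 137, and 139 CPM against 37.4, 57.8, and 74.6 CPM in Lhx6 cells (1.14, adjusted p = 0.000390). Cdhr1, a photoreceptor cadherin, was at 3.37, 19.3, and 22.9 CPM against 0.377, 1.87, and 1.40 CPM (3.60, adjusted p = 0.000482). Fat3 (1.09, adjusted p = 0.00119) and Fat4 (1.32, adjusted p = 0.000528) were higher in Reln than in Erbb4 cells. By stage in Lhx6 cells, 6 of these 11 were at least 2-fold higher at P1 than at E16.5 (54.5%, beside 10.6% of all genes), among them the calsyntenin Clstn1 with 143, 392, and 548 CPM. Of the 13 regulators of choice, 4 (30.8%) were at least 2-fold lower at P5 than at E16.5, beside 12.5% of all genes, among them the cohesin subunits Smc1a (189, 92.3, and 56.7 CPM) and Smc3 (257, 144, and 74.0 CPM), and 1 (7.69%, beside 18.4%) was higher, the DNA methyltransferase Dnmt3a (70.7, 140, and 218 CPM).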

How the data were processed

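The UMI counts per gene and cell were deposited by the authors as whole numbers without normalization. Per the file headers and the study's methods, the P1 reads went through Cell Ranger 3.0.2 and the others through version 3.1.0, on the GRCm38 build; the program counts each UMI once for a single gene and calls the cells. A further filter of the study on confidently aligned reads cannot be applied to counts, and it and a filter on total UMIs were left out. The kept libraries held 24632146, 10964193, and 12886663 UMIs at E16.5, P1, and P5, and 1 UMI was worth 0.0471, 0.125, and 0.108 CPM in Lhx6 cells and 1.68, 0.508, and 0.509 CPM in Nos1 cells. Intervals are exact, at 95%, and cover counting error only.

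UMIs were summed per library and class with pandas 2.3.3, scipy 1.17.1, and numpy 2.4.6 under Python 3.11.15, and tested in R 4.3.3 with edgeR 4.0.16 (TMM scaling, quasi-likelihood test, library as a block, Benjamini-Hochberg adjustment over all genes with at least 30 UMIs, the gate genes left out). The threshold was an adjusted p of 0.05. DESeq2 1.42.0 was an alternative, where genes without an adjusted p were left out. The study tested cells by a Wilcoxon test, which was not used because cells are not replicates. Both classes of a library come from the same animals, and their deviations from the class means correlated at 0.633 to 0.731 in the first comparison and 0.630 to 0.822 in the second. The test scripts were tested on simulated data. Stage ratios used a pseudocount of 1 CPM. Promoters came from RefSeq and shared exons from the GRCm38 annotation (GENCODE). Figures were drawn with matplotlib 3.10.9.

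Named were the 5 members with the highest mean CPM in Lhx6 cells of each group, those that passed a test, the 4 with the largest stage ratio in each direction whose interval excluded 1, and 5 genes listed by the study (Pcdh7, Cdh12, Cdh13, Pcdh18, and Cdh8). A few others were named after their values were seen, among them those in the Dach1 and Lypd1 comparison. The members and lists were chosen with earlier results of these data known. Alternatives covered scaling, test, filters, block, left-out libraries, depth per cell, cell gates, and pseudocount. Cell clusters were not rebuilt, and spatial data were not used here.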

Additional observations from a re-analysis of the deposited data

Results flagged for a closer look

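Members whose ratio intervals lay on opposite sides of 1 in different libraries are given here. With 1 library per stage the difference between stages was not tested. In Nos1 over Lhx6 cells there were 3 such members (3.70%), close to the 2.79% of 13804 genes. Cdh12, a type II cadherin of the brain, had a ratio of 2.17 at E16.5 and of 0.215 at P5. Pcdh11x, an X-linked delta-1 protocadherin, had 2.00 at E16.5 and 0.398 at P5. Pcdh9 had 0.795 at P1 and 1.43 at P5. The Nos1 cells of E16.5, in which Cdh12 and Pcdh11x were higher, carried excitatory markers at 835 CPM, and their part in these ratios was not tested. With marker-positive cells left out the log2 fold change of Cdh12 over the 3 libraries was -1.09 in place of -0.28. It did not pass (edgeR adjusted p = 0.161). For Pcdh11x the log2 fold change was then -0.75 (edgeR adjusted p = 0.0724) in place of -0.43 (adjusted p = 0.552), and neither passed. Over the alternatives it ran from -1.55 with cells thinned to 2000 UMIs (edgeR adjusted p = 1.31e-05) to 0.19 without P5 (adjusted p = 0.909). By DESeq2 it was -0.25 (adjusted p = 0.999).

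In Reln over Erbb4 cells there were 2 (2.47%), close to the 2.06% of 13802 genes. Cdh10, a type II cadherin, had a ratio of 2.13 at E16.5 and 1.40 at P1 but 0.745 at P5. Cdh7 had 0.599 at E16.5 and 1.82 and 1.89 at P1 and P5. Excitatory markers stayed at or under 15.8 CPM in these classes at all 3 stages.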

How the results depend on the processing

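Without the replicate block, which leaves the differences between stages in the error, 0 members passed in either comparison (edgeR called 1 gene in all in the first and 0 in the second; 4 and 1 members had an unadjusted p under 0.05). In Nos1 over Lhx6 cells, leaving out 1 library gave 8 (without P1) to 14 (without E16.5) members in place of 9, and 498 to 1706 genes in all in place of 743. In the other 13 alternatives Pcdh18, Cdh9, Pcdh15, Pcdh17, Cdh2, Cdh7, and Pcdh19 passed each time, Pcdh7 in 12, and Cdh24 in 11 (lost by filterByExpr and without P1). In Reln over Erbb4 cells the range was 0 (without P1) to 9 (without E16.5) in place of 4, and 153 to 1604 genes in all in place of 776, with 1 by DESeq2 and 2 by filterByExpr; Pcdh18 passed in 9 of 10 alternatives, Cdh6 in 7, and Cdh11 and Pcdh9 in 6 each. Cdh12, which passed in neither comparison with all 3 libraries, ran from -0.73 without E16.5 to 0.68 without P5 in the first comparison and from -0.086 without P1 to 0.058 without E16.5 in the second, where it was also 0.022 without the block and 0.30 with over 1000 genes and under 5% mitochondrial UMIs.

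With a pseudocount of 5 CPM, 12 members in place of 21 were at least 2-fold apart at P1 over E16.5, and 4 in place of 11 at P5 over P1. The latter count was 19 with the mean of per-cell CPM, 19 with cells thinned to 2000 UMIs, and 25 with the stricter cell filter, which left 357 of 1606 Lhx6 cells at P1. The share of Lhx6 cells with a clustered protocadherin UMI was 70.0% at P1 and 76.4% at P5 under that filter. Thinned, the shares were 46.5%, 56.3%, and 45.2% in Lhx6 cells and 40.0%, 52.8%, and 45.4% in Nos1 cells. The causes of these shifts were not tested. The stage counts rest on 2 libraries each, and the 67 Nos1 cells of E16.5 leave members under about 5 CPM undetermined there.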

Other observations

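As whole groups, the cadherins summed to 0.976 (95% interval 0.869 to 1.09) of the Lhx6 level in Nos1 cells at E16.5, 0.766 (0.725 to 0.809) at P1, and 0.674 (0.636 to 0.715) at P5. The non-clustered protocadherins stood at 0.903, 0.959, and 1.09 and the clustered members at 0.822, 0.891, and 0.976 of it. Within the non-clustered group, the delta-1 members together were above 1 in each library (1.31, 1.19, and 1.38) and the delta-2 members below 1 (0.700, 0.795, and 0.887), although Pcdh18, which is a delta-2 member, was higher in Nos1 cells. These sums are led by their most abundant genes.

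Without the E16.5 library more genes passed in all. In Nos1 over Lhx6 cells 12.4% of all genes passed in place of 5.38%, and 14 members (17.3%) in place of 9 (11.1%): Cdh20 (log2 fold change 1.96, edgeR adjusted p = 0.0140) and Pcdh10 (0.33, adjusted p = 0.0451) were higher, and Cdh12 (-0.73, adjusted p = 0.0391), Cdh13 (-0.56, adjusted p = 0.000133), and Pcdh11x (-0.82, adjusted p = 7.46e-05) were lower. In Reln over Erbb4 cells the same step added Cdh4 (0.68), Cdh7 (0.93), Cdh8 (0.58), and Cdh9 (0.43) as higher and Pcdh17 (-0.53) as lower, with edgeR adjusted p-values between 6.03e-07 and 0.0261. The 9 members passing there (11.1%) stood beside 11.6% of all genes. These members were named after their values were seen.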
